A study of Mus musculus and Homo sapiens with 26 samples.

Results

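The miR-23a/27a/24-2 cluster (the a cluster) and the miR-23b/27b/24-1 cluster (the b cluster) are paralogous groups of 3 miRNA hairpins each. The members were the 10 mature strands taken by name: mmu-miR-23a-5p, mmu-miR-23a-3p, mmu-miR-23b-5p, mmu-miR-23b-3p, mmu-miR-27a-5p, mmu-miR-27a-3p, mmu-miR-27b-5p, mmu-miR-27b-3p, mmu-miR-24-3p and mmu-miR-24-2-5p. All 10 were listed among the 1396 mouse miRNA strands used, and 9 of the 10 had a row among the 1080 human names of a second table. The cells were P19, a mouse embryonal carcinoma line, in 3 genotypes: WT with both Dicer1 alleles intact (+/+), HetKO with 1 allele lost by a frameshift truncation (+/-), and HM with the same lost allele plus the RNase IIIb hotspot change E1797G on the remaining allele (HM/-). HM was made from the established HetKO clone, so the clone and the genotype cannot be told apart. Small RNA was sequenced from total RNA in 6 libraries of each genotype, and from AGO2 immunoprecipitates (IP) in 2 WT and 4 HM libraries. Separately, HEK293T DICER knockout cells, a human embryonic kidney line, expressed either WT Dicer or the RNase IIIa change D1320A, with 1 library each and therefore no replicate check.

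Dicer cuts a hairpin precursor with 2 RNase III domains: RNase IIIa cuts the 3p arm and frees the 5′ end of the 3p strand, and RNase IIIb cuts the 5p arm and frees the 3′ end of the 5p strand. One strand of the resulting duplex, the guide, stays in AGO2, and the other, the passenger, is mostly lost. In the miR-23, miR-27 and miR-24 families the 3p strand is the usual guide. Each cluster is transcribed as 1 primary RNA, so its 3 hairpins begin from the same transcript.

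Of the b-cluster sequences below, miR-27b-3p is shown because 1 base separates it from its a-cluster paralog, and the 5p strands because they were nearly absent from HM. They were taken from RefSeq (GRCm38.p6), which matched 9 of the 10 members, mmu-miR-23b-3p not among them. Capitals mark the seed, bases 2 to 8, which directs target pairing.
mmu-miR-27b-3p: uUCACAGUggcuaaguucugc
mmu-miR-27b-5p: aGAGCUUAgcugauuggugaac
mmu-miR-23b-5p: gGGUUCCUggcaugcugauuu
miR-27a-3p and miR-27b-3p shared their seed and differed by the single substitution C19U, counted from 1 at the 5′ end with the miR-27a-3p base first. A read that ends before that base, or carries an error there, cannot separate the pair. miR-23a-3p and miR-23b-3p were not compared in this way, since miR-23b-3p was not matched. A like limit may therefore hold for reads of that pair. miR-27a-5p and miR-27b-5p differed at 8 of 22 positions, beginning with G3A inside the seed. miR-24-3p is encoded by both clusters with 1 sequence, so its level cannot be divided between them. Outside the members, miR-5124b was the strand with the miR-24-3p seed that was also listed, at a WT mean of 0.054, and miR-24-1-5p, the remaining strand of the b cluster, shared the seed of miR-24-2-5p.

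Library depth was 2765262 to 2990749 miRNA reads in WT, 2542691 to 3246326 in HetKO and 1530466 to 1702756 in HM total RNA, and 4476845 to 5889717 in AGO2 IP. The strands of the miR-290 and miR-302 clusters that mark these embryonal cells were present in every genotype, with a summed signal of 81881 to 93285 in WT, 73197 to 91453 in HetKO and 59325 to 85474 in HM. All 10 miRNAs fixed as markers of other cell types also had reads, with sums of 6282 to 10826, 6028 to 8636 and 5760 to 7348. Most of that was miR-126a-3p, an endothelial miRNA, with means of 7214, 6503 and 5834 in WT, HetKO and HM. The muscle strand miR-1a-3p had means of 437, 274 and 461, miR-143-3p of 203, 22.7 and 45.9, and the blood cell strand miR-142a-3p of 165, 45.4 and 118. The other 6 had means of at most 114 in any genotype, and the red cell strands miR-451a and miR-144-3p of at most 3.26. Their part in the results was not tested. Deviations from the genotype mean were shared by libraries numbered 1 and 4, 2 and 5, and 3 and 6 in WT and HetKO (Pearson r across miRNAs of 0.63 to 0.98), so 6 libraries may hold fewer than 6 independent cultures and p-values measure the spread between these libraries.

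In WT total RNA the b cluster supplied far more 3p strand than the a cluster. Values are reads scaled to added spike-in RNA. miR-27b-3p was the most abundant member at 19275 ± 2053 (SD, n = 6), followed by miR-24-3p at 3306 ± 284 and miR-23b-3p at 2215 ± 214. miR-27a-3p, at 1083 ± 67.8, and miR-23a-3p, at 968 ± 109.8, were the lowest of the 5 and their ranges overlapped. The other neighbours in that order did not overlap. Together the 10 members made up 2.55% ± 0.11 of the miRNA signal in WT (SD, n = 6), and the b-cluster pair miR-23b-3p and miR-27b-3p made up 2.03% ± 0.12 against 0.194% ± 0.012 for miR-23a-3p and miR-27a-3p.

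The 5p strands were rare. miR-27b-5p stood at 16.2 ± 3.88 in WT, miR-23b-5p at 16.1 ± 2.46 and miR-27a-5p at 12.7 ± 2.40 (SD, n = 6). miR-23a-5p had 6 reads and miR-24-2-5p 3 reads over all 6 WT libraries, within what a count of 0 allows, which was a signal of up to 1.22 per library taken as 3 reads. The order of the 5p strands did not follow that of their partners. miR-27a-5p and miR-27b-5p were close, with a mean log2 ratio of -0.31 ± 0.26, while their 3p partners differed by a log2 ratio of -4.15 ± 0.14 (SD, n = 6). As a result, the 5p strand made up 0.830% to 1.34% of the miR-27a duplex and 0.063% to 0.109% of the miR-27b duplex in WT. The miR-23 pair ran the other way, with 0.589% to 0.834% for miR-23b and 0 to 0.123% for miR-23a. Neither pair of ranges overlapped.

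All 5 3p strands were lower in HM than in WT, and miR-23a-3p fell furthest. miR-23a-3p had a lowest, median and highest value of 801, 981 and 1103 in WT and 107.2, 138 and 191 in HM. Every HM library lay far below every WT library. Its log2 change was -2.74 (SE 0.15, limma adjusted p = 1.1e-10, n = 6 and 6); the mean was 6.66-fold lower. miR-23b-3p went from 1910, 2201 and 2510 to 723, 1016 and 1087, a log2 change of -1.19 (SE 0.14, limma adjusted p = 8.85e-07), with no overlap. miR-27a-3p went from 976, 1084 and 1164 to 431, 521 and 717, a log2 change of -1.02 (SE 0.14, limma adjusted p = 9.85e-06).

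miR-27b-3p fell from 15463, 20301 and 20645 to 8685, 10835 and 11829, a log2 change of -0.88 (SE 0.14, limma adjusted p = 2.33e-05). miR-24-3p fell least, from 2938, 3396 and 3574 to 1497, 2440 and 2568, with a log2 change of -0.54 (SE 0.15, limma adjusted p = 0.00401). The groups did not overlap for either strand, and HM replicate 6 was the low value of miR-24-3p. How many of all miRNAs showed no overlap was not counted. The plot of 3p levels in total RNA shows all 5 strands. A call lower in this comparison was common, at 59.4% of 416 miRNAs tested, and the median log2 change over all of them was -1.15. In bulk RNA a lower level per cell and fewer cells carrying a strand cannot be told apart.

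**Figure D1:**
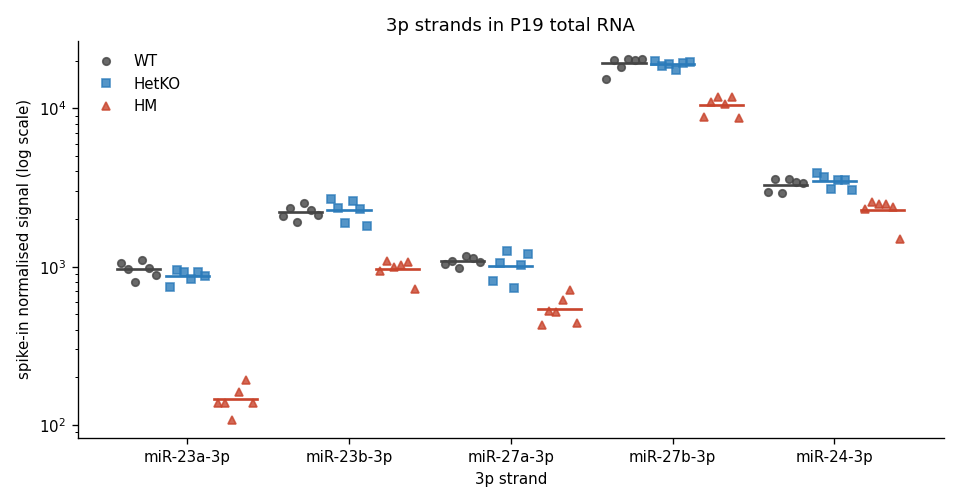
Spike-in normalised signal (log scale) of the 5 3p strands in WT, HetKO and HM total RNA, with 1 point per library, 6 libraries per genotype and a horizontal bar at the mean. HM lies below WT for every strand, and the gap is widest for miR-23a-3p, at means of 968 and 145.3.

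The size of these changes depended on the scale. Summed miRNA signal was 437249 to 549949 in HM and 946824 to 1164379 in WT, and when every library was rescaled to 1 total the median over all miRNAs moved to 0.25. On that scale miR-23a-3p remained lower (log2 change -1.63), miR-23b-3p (-0.08) and miR-27a-3p (0.09) were not called, and miR-27b-3p (0.23, limma adjusted p = 0.0412) and miR-24-3p (0.57, limma adjusted p = 0.000481) were called higher. Centred on the 59 guide 3p-miRNAs outside the members, miR-23a-3p (-2.32), miR-23b-3p (-0.78), miR-27a-3p (-0.60) and miR-27b-3p (-0.47) were called lower and miR-24-3p (-0.13, limma adjusted p = 0.35) was not. The centred fit called 52.4% of 416 miRNAs lower and 29.6% higher. A guide here is a strand with over 70% of its duplex at a WT mean over 100.

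Those 59 guide 3p-miRNAs had a median log2 change of -0.33, with 26 called lower and 8 higher. Of 64 guide 3p-miRNAs with the members included, miR-23a-3p ranked 2 from the lowest, miR-23b-3p 12, miR-27a-3p 14, miR-27b-3p 16 and miR-24-3p 28. Other families with a 3p guide, a list of 27 strands that includes miR-19, miR-29, miR-92 and miR-200 members, had a median of -0.41, with 13 called lower and 1 higher. Both miR-221-3p and miR-222-3p, another clustered pair, were called lower, at a median of -1.70. Their quartiles were -2.35 and -1.06, so the strands of that pair also changed unequally.

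**Figure D2:**
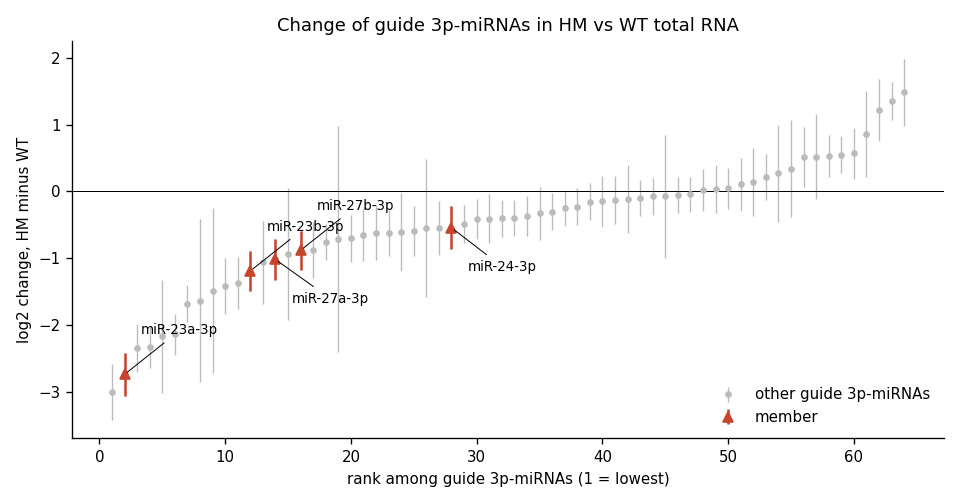
log2 change in HM vs WT total RNA (y axis) of the 64 guide 3p-miRNAs ordered from lowest to highest (x axis), with limma 95% confidence intervals as bars and the 5 members as triangles. miR-23a-3p is the second lowest at -2.74, and miR-24-3p, at -0.54, lies near the middle.

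The a and b paralogs of miR-23 changed unequally, while those of miR-27 showed no difference past the test. The ratio of 2 strands within a library does not depend on the library's scale. The log2 ratio of miR-23a-3p to miR-23b-3p was -1.28 to -0.999 in WT and -3.21 to -2.39 in HM. The ranges did not overlap, and the mean fell by 1.55 on the log2 scale (exact permutation test, two-sided as throughout, p = 0.00216, which is the minimum for 6 libraries a group). The log2 ratio of miR-27a-3p to miR-27b-3p was -4.25 to -3.88 in WT and -4.51 to -4.04 in HM, a difference of -0.14 (exact permutation test, p = 0.158), and without HM replicate 5 it was -0.19 (exact permutation test, p = 0.0433).

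Strands cut from the same primary transcript also parted. Within the a cluster, the log2 ratio of miR-23a-3p to miR-27a-3p was -0.28 to 0.01 in WT and -2.27 to -1.64 in HM, with no overlap and a mean difference of -1.72 (exact permutation test, p = 0.00216). Within the b cluster, the log2 ratio of miR-23b-3p to miR-27b-3p was -3.12 ± 0.15 in WT and -3.43 ± 0.13 in HM (SD, n = 6), a smaller difference of -0.31 (exact permutation test, p = 0.00649) whose ranges overlapped. Averaging libraries 1 and 4, 2 and 5, and 3 and 6 gave differences of -1.75, -1.72 and -1.69 for the a cluster and -0.35, -0.27 and -0.30 for the b cluster. The 24 tests of ratios were not adjusted.

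**Figure D3:**
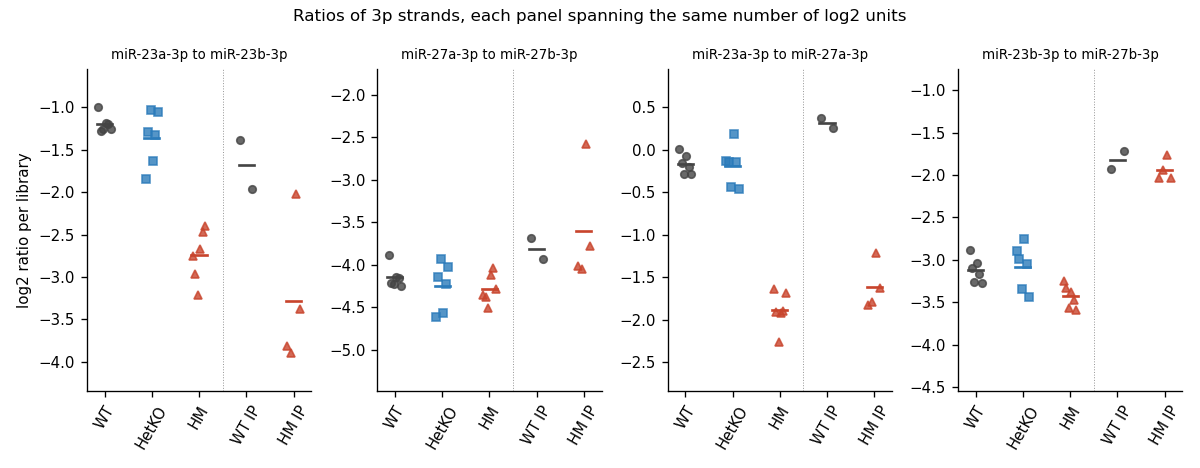
log2 ratio per library (y axis) for 4 pairs of 3p strands in WT, HetKO and HM total RNA and in WT and HM AGO2 IP, with 1 point per library and a bar at the mean, each panel spanning the same number of log2 units. The ratios with miR-23a-3p are lower in HM total RNA, with mean differences of -1.55 against miR-23b-3p and -1.72 against miR-27a-3p, and that of miR-27a-3p to miR-27b-3p overlaps between genotypes.

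The 5p strands were nearly absent from HM. miR-23b-5p went from 37 to 51 reads per library in WT to 0 to 2 in HM, which left 1.6% of its WT signal. miR-27a-5p had 25 to 40 reads per WT library and 2 reads over all 6 HM libraries, and miR-27b-5p had 34 to 58 reads per WT library and 3 over all 6 HM libraries. For each of the 3 strands the groups did not overlap (exact permutation test on log2 signal, p = 0.00216). Overlap was not counted over all miRNAs, of which limma without a filter called 38.6% of 1229 lower. miR-23a-5p and miR-24-2-5p had no reads in HM, and with 6 and 3 reads over WT a difference was not detectable at this depth (exact permutation test, p = 0.182 for each). None of the 5p members reached a mean signal of 10 over the 12 libraries, the filter of the limma fit. Of the 32 passenger 5p-miRNAs outside the members that did, 31 were called lower, a count that the filter favours because a strand near 0 in HM passes it only through WT.

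As a share of the duplex, the 5p strand of miR-27a fell from 1.16% ± 0.18 in WT to 0.0189% ± 0.0293 in HM (SD, n = 6, exact permutation test, p = 0.00216). That of miR-23b fell from 0.723% ± 0.096 to 0.0256% ± 0.0304, and that of miR-27b from 0.0842% ± 0.0192 to 0.00142% ± 0.00155, with the same exact permutation p of 0.00216. Since the 3p strands fell as well, the loss of the 5p strand was larger than that of its partner in all 3 duplexes. The 20 tests of 5p shares were not adjusted.

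**Figure D4:**
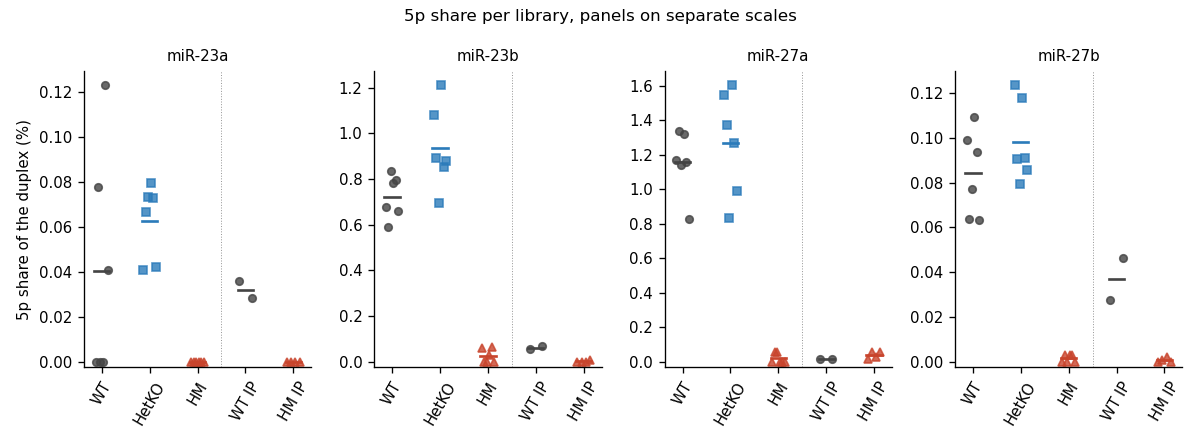
5p share of each duplex in percent (y axis, separate scales) for miR-23a, miR-23b, miR-27a and miR-27b, with 1 point per library and a bar at the mean, in WT, HetKO and HM total RNA and in WT and HM AGO2 IP. The WT mean is 1.16% for miR-27a and 0.0842% for miR-27b, and HM total RNA lies near 0 in every panel.

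HetKO controls for the lost allele, and no member was called there. Of the 10 members 8 passed the filter, and 0 were called by limma, nor did any reach an unadjusted p under 0.05, while limma-voom on reads called 0 as well. The background was 27.2% of 434 miRNAs called. Log2 changes of the 3p strands were -0.14 (95% confidence interval -0.36 to 0.09) for miR-23a-3p, 0.03 (-0.23 to 0.29) for miR-23b-3p, -0.12 (-0.41 to 0.17) for miR-27a-3p, -0.01 (-0.22 to 0.19) for miR-27b-3p and 0.07 (-0.14 to 0.28) for miR-24-3p. The largest was miR-23b-5p at 0.37 (limma adjusted p = 0.186). These calls also rest on the scale: centred on guide 3p-miRNAs, which moved the median over all miRNAs from -0.12 to 0.26, 6 members were called higher, against 39.6% of all miRNAs called higher and 13.8% lower. The 5p share of miR-23b was 0.935% ± 0.183 in HetKO (SD, n = 6) against 0.723% in WT (exact permutation test, p = 0.026), with overlapping ranges, and p rose to 0.0584 without WT replicate 1 or WT replicate 6 and to 0.0628 without WT replicate 2.

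HM set against HetKO compares lines that share the lost allele, and the 3p strands fell here too. The filter passed 6 members. All 5 3p strands were called lower, against 55.2% of 395 miRNAs. The sixth, miR-23b-5p, had a mean of 21.9 in HetKO and 0.258 in HM and passed the filter only through HetKO, so its call is no support. Its log2 change of -4.16 also depended on the pseudocount, at -6.43 with 0.1 and -1.61 with 10. Among 3p strands the log2 changes were -2.60 for miR-23a-3p, -1.22 for miR-23b-3p, -0.90 for miR-27a-3p, -0.87 for miR-27b-3p and -0.61 for miR-24-3p, with limma adjusted p-values up to 0.00227. Rescaled to 1 total, miR-23a-3p was still lower (-1.60), miR-24-3p was called higher (0.39), and miR-23b-3p (-0.22), miR-27a-3p (0.10) and miR-27b-3p (0.14) were not called. The log2 ratio of miR-23a-3p to miR-23b-3p differed by -1.38 and that of miR-23a-3p to miR-27a-3p by -1.70 (exact permutation test, p = 0.00216 for each), while that of miR-27a-3p to miR-27b-3p differed by -0.03 (exact permutation test, p = 0.816). HM vs WT and HM vs HetKO share the HM libraries.

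In AGO2 IP 3 of the 5 3p strands were called higher in HM, which was near the background of 54% of 467 miRNAs called higher. The members' median log2 change of 0.83 lay below the 1.13 over all tested, and the 59 guide 3p-miRNAs outside the members had a median of 1.28, with 43 called higher and 4 lower. Values are reads that the authors scaled to the total miRNA of each library (RPM). The listed values summed to 822326 to 832586 in WT but 975456 to 977911 in HM, so an RPM is not a share of the listed total. Mean shares of the listed total in WT and HM were 0.399% and 0.857% for miR-24-3p, and 1.52% and 2.30% for miR-27b-3p. For miR-23b-3p they were 0.433% and 0.598%. They were 0.108% and 0.206% for miR-27a-3p, and 0.136% and 0.0736% for miR-23a-3p, with the outlying HM replicate 3 described below included. The rises are smaller than in RPM, and no fit was run on shares. miR-24-3p was 2960 and 3641 RPM in WT and 7796, 7975, 9921 and 7762 in HM, with a log2 change of 1.34 (SE 0.20, limma adjusted p = 0.000627). miR-27b-3p was 12534 and 12671 in WT and 22003, 22786, 21302 and 23730 in HM (0.83, SE 0.16, limma adjusted p = 0.00219). miR-23b-3p was 3293 and 3863 in WT and 5382, 5912, 6269 and 5788 in HM (0.71, SE 0.17, limma adjusted p = 0.00677). For these 3 strands the groups did not overlap, which was not counted over all miRNAs.

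HM AGO2 IP replicate 3 stood apart for miR-23a-3p, miR-27a-3p and also miR-24-3p, which both clusters encode. miR-24-3p was 9921 RPM there, against 7762 to 7975 in the other HM libraries. Its log2 change spanned 1.19 to 1.49 when 1 library was left out. miR-23a-3p was 1255 and 990 RPM in WT and 382, 396, 1543 and 554 in HM, the third of which lay above both WT libraries. The log2 change of miR-23a-3p was -0.89 (limma adjusted p = 0.186) with that library and -1.35 (limma adjusted p = 0.00331) without it. miR-27a-3p was 969 and 827 in WT and 1358, 1376, 3577 and 1719 in HM, with a log2 change of 1.04 (limma adjusted p = 0.0531) and 0.72 (limma adjusted p = 0.0193) without replicate 3. Leaving out HM AGO2 IP replicate 1 instead gave 1.19 (limma adjusted p = 0.0474). With 1 common 3p-miRNA total per library, a scaling chosen after the data were seen, the log2 changes became -2.19 for miR-23a-3p, -0.59 for miR-23b-3p and -0.46 for miR-27b-3p, all called lower, and 0.05 for miR-24-3p and -0.25 for miR-27a-3p, not called. On that scale 47.0% of 485 miRNAs were called lower and 28.2% higher, at a median log2 change of -0.31.

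Ratios within AGO2 IP were also compared, though 4 against 2 libraries cannot give an exact p below 0.0667. The log2 ratio of miR-23a-3p to miR-27a-3p was 0.26 and 0.37 in WT and -1.82 to -1.21 in HM (exact permutation test, p = 0.0667), with no overlap even though replicate 3 was included. That of miR-23a-3p to miR-23b-3p was -1.96 and -1.39 in WT and -3.90 to -2.02 in HM (exact permutation test, p = 0.133). The HM value nearest to WT was again replicate 3. The other 2 ratios overlapped between genotypes: that of miR-27a-3p to miR-27b-3p differed by 0.21, against -0.14 in total RNA (exact permutation test, p = 0.933), and that of miR-23b-3p to miR-27b-3p by -0.12 (exact permutation test, p = 0.333).

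**Figure D5:**
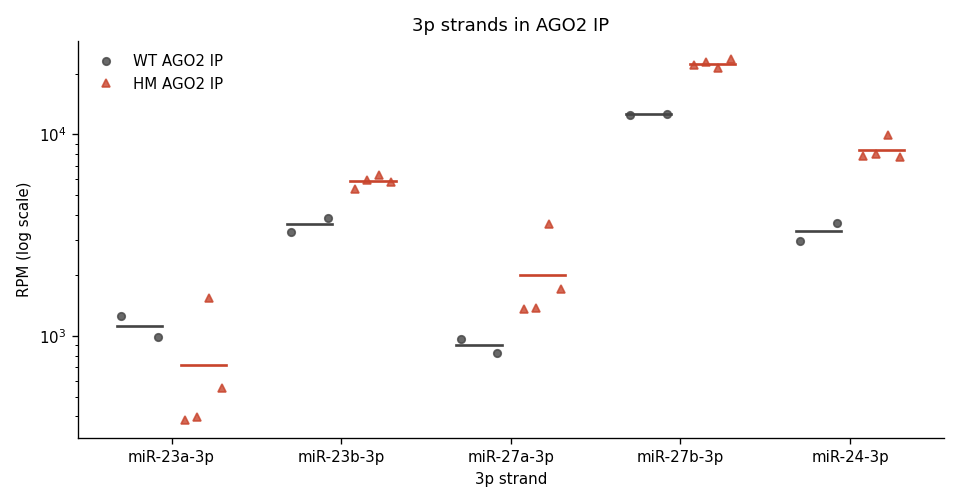
RPM (log scale) of the 5 3p strands in WT (2 libraries) and HM (4 libraries) AGO2 IP, with 1 point per library and a bar at the mean. HM is higher for miR-24-3p, miR-27b-3p and miR-23b-3p, and the highest HM points of miR-23a-3p and miR-27a-3p, at 1543 and 3577, are both replicate 3.

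Set against total RNA, miR-23b-3p was the 3p member that AGO2 held most in excess in both genotypes. Shares here are of the total over listed names in each library, not RPM. The share in AGO2 IP divided by that in total RNA was 2.06 for miR-23b-3p, 1.48 for miR-23a-3p, 1.28 for miR-24-3p, 1.06 for miR-27a-3p and 0.835 for miR-27b-3p in WT. In HM it was 3.01, 2.48, 1.83, 1.87 and 1.08. Without HM AGO2 IP replicate 3 the HM ratios were 2.93, 1.53, 1.71, 1.38 and 1.09, so that miR-24-3p stood above miR-23a-3p. Among 5p strands miR-24-2-5p reached 14.5 in WT and miR-27a-5p 3.86 in HM, but on 3 and 2 reads over the total RNA libraries. The assays were normalised separately and their libraries are not matched, so these ratios carry no test. The ratio was not computed for miRNAs outside the clusters, so how common such values, or their rise in HM, were is not known.

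Among 5p strands in WT AGO2 IP, miR-27b-5p had 23 and 42 reads, miR-23b-5p 12 and 19, and miR-27a-5p 1 and 1. The 5p share of miR-27a was thus 0.0154% and 0.0169% in WT AGO2 IP, below all 6 WT total RNA libraries. miR-24-2-5p had 13 and 16 reads in WT AGO2 IP against 3 over all WT total RNA libraries, and 0 to 2 in HM AGO2 IP. miR-24-1-5p, from the b hairpin, had 2 and 17 reads in WT AGO2 IP. In HM AGO2 IP miR-27b-5p had 0, 1, 2 and 0 reads and miR-23b-5p 0, 0, 0 and 2, while miR-27a-5p had 1, 4, 5 and 5, near the 3 reads that a count of 0 allows. In limma without the filter, miR-27b-5p (log2 change -2.28, adjusted p = 0.000373), miR-23b-5p (-1.56, adjusted p = 0.00087) and miR-24-2-5p (-1.44, adjusted p = 0.000648) were lower in HM, and miR-27a-5p was not called (0.58, adjusted p = 0.0728). The same fit called miR-23a-5p lower (-0.44, limma adjusted p = 0.00892). Its 3 and 2 reads in WT, against none in HM, lie within what a count of 0 allows, so a loss cannot be read from them. That fit called 31.9% of 1262 miRNAs lower. With the filter, 19 of 22 passenger 5p-miRNAs outside the members were called lower. The filter favours that count too, because a strand near 0 in HM passes it only through WT.

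In HEK293T cells, D1320A left little of the 3p strands and kept miR-27a-5p. Reads numbered 822285 with WT Dicer and 103661 with D1320A, and the deposited scores are reads times an unstated factor. With WT Dicer miR-27b-3p had 6312 reads, and D1320A left 40, a 151-fold lower score. miR-24-3p went from 738 to 9 reads (78.5-fold), miR-23a-3p from 642 to 12 (51.2-fold), miR-27a-3p from 1101 to 35 (30.1-fold) and miR-23b-3p from 440 to 3 reads. These 4 folds were all over 10, and 96.7% of 182 3p names at a mean score of at least 1000 were at least 10-fold lower, with a median log2 difference of -5.31. Rescaled to the same miRNA total, the folds were 19.9 for miR-27b-3p, 10.3 for miR-24-3p, 6.74 for miR-23a-3p and 3.97 for miR-27a-3p, and 66.5% of the 3p names were at least 10-fold lower.

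miR-27a-5p had 42 reads with WT Dicer, a score of 9831 (exact Poisson 95% interval 7086 to 13289), and 64 reads with D1320A, a score of 15648 (12051 to 19982). The intervals cover counting error only and they overlapped. Rescaled to the same miRNA total, its log2 difference was 3.60 in place of 0.67. The median log2 difference of the 191 5p names at that score was -2.08, and 26.2% of them were at least 10-fold lower. miR-27b-5p had 8 and 2 reads and miR-23b-5p 8 and 0, too few for a fold, and miR-23a-5p had 0 and 1. The 5p strand thus made up 3.67% of miR-27a reads in the WT Dicer library (2.73 to 4.93, 95% Wilson interval), against 64.6% (54.8 to 73.4) in the D1320A library. For miR-27b the shares were 0.127% (0.0642 to 0.25) and 4.76% (1.32 to 15.8). With WT Dicer the share was higher in miR-27a than in miR-27b. It was 1.79% (0.908 to 3.48) in miR-23b against 0% (0 to 0.595) in miR-23a, from 0 of 642 reads. These are the orders seen in P19 WT. The ratio of miR-27b-3p to miR-27a-3p scores was 5.73 with WT Dicer and 1.14 with D1320A.

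Across the 18 total RNA libraries, the profiles of members were most like those of strands that also fell in HM. For miR-23a-3p the 3 closest of 231 miRNAs outside the clusters, by Pearson r of log2(signal + 1), were miR-192-5p, miR-467e-5p and miR-9-5p, each with r near 0.996 or 0.995. All 3 are 5p strands, with differences between HM and WT of -7.41, -7.82 and -7.24 on the log2 scale. For miR-24-3p the closest were miR-130a-3p (r = 0.984), miR-350-3p (0.974) and miR-130b-3p (0.95), all 3p strands with differences of -0.62, -0.62 and -0.71. miR-23b-3p was closest to miR-505-3p (0.979), miR-140-3p (0.977) and miR-30c-5p (0.9754), miR-27a-3p to miR-302a-3p (0.9504), let-7c-5p (0.932) and miR-467e-5p (0.931), and miR-27b-3p to miR-29c-3p (0.968), miR-20b-5p (0.965) and miR-106b-5p (0.965). Such r values follow mainly the split between HM and the other libraries, and the size of the change does not enter them.

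The a cluster lies on mouse chromosome 8 from 84208518 to 84208921 on the plus strand (GRCm38), a span of 404 bases for 3 hairpins. GENCODE vM21 places Mir23a and Mir27a in no other gene, and Mir24-2 overlaps an exon of the lincRNA Gm26532 and, on the minus strand, Mir3074-2. The b cluster lies on chromosome 13 from 63300484 to 63301275 on the plus strand, a span of 792 bases inside the protein-coding gene 2010111I01Rik. There Mir23b is intronic, Mir27b and Mir24-1 overlap an annotated exon of that gene, and all 3 lie opposite an intron of Fancc on the minus strand. The build used for the deposited counts was not given in the sources used here.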

How the data were processed

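Small RNA libraries were prepared with the QIAseq miRNA kit and counted by the authors with QuagmiR. The deposited total RNA values are a signal, reads multiplied by 1 factor per library from spike-in RNA added before library preparation, so they keep differences in total miRNA. The deposited AGO2 IP values are RPM, which the authors scaled to total miRNA, so a loss of 5p-miRNAs raises every other strand. The deposited HEK293T values are a score, reads times a factor that was not given in the sources used here. The aligner settings, genome build and miRNA release were likewise not given. Values of 0.01 (P19) and 1 (HEK293T) stand for no reads and were read as 0. The values are whole multiples of 1 step per library, which gave the reads behind each value. Of 1413 mouse names 17 had no values and 1396 were used.

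Groups followed the sample labels. The series' design text names E1813G for the HEK293T cells where the sample labels name D1320A, and the labels were followed. limma 3.58.1 (R 4.3.3) was fitted without covariates to log2(value + 1) of every miRNA whose mean over both groups reached 10, with Benjamini-Hochberg adjustment over all of them and calls at an adjusted p of 0.05. A log2 change on this scale understates that of low strands. The step was tested on simulated data. Ratios of strands and 5p shares were computed per library and compared by two-sided exact permutation tests. With 1 library, Wilson and exact Poisson intervals were used, which cover counting error only. scipy 1.17.1 and matplotlib 3.10.9 were used. The miRNAs named beside the members were those sharing bases 2 to 8 of a member, and for each 3p member the 3 others with a mean of at least 100 and the highest Pearson r over total RNA libraries. miR-126a-3p, miR-1a-3p, miR-143-3p, miR-142a-3p, miR-451a, miR-144-3p, miR-221-3p and miR-222-3p were named from fixed lists. The members, lists and tests were chosen with earlier results of these data known. The study left a miRNA cluster on chromosome 12 out of its results. It was kept in the fits here. An alternative left out only part of it, with 415 in place of 416 miRNAs tested in HM vs WT. That alternative cannot show what leaving out the whole cluster would do. Same-numbered HM and HetKO libraries deviated together (r of 0.11 to 0.53 in all 6 pairs), so a fit with the number as a block was run as an alternative, and the values printed are from the fit without it. Those of HM and WT (-0.18 to 0.48), HetKO and WT (-0.38 to 0.41) and HM and WT AGO2 IP (0.03 and 0.54) did not all do so.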

Additional observations from a re-analysis of the deposited data

Results flagged for a closer look

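In 70 sets of 4 or 6 libraries, 1 library stood far from the others of its group in 8. A chance rate of about 1 in 20 would hold for independent sets. These sets share libraries and strands, and some hold few reads, so the count cannot be weighed against that rate. HM AGO2 IP replicate 3 accounts for 3 of them: miR-23a-3p at 1543 RPM against 382 to 554 in the other HM libraries, miR-27a-3p at 3577 against 1358 to 1719, and miR-24-3p at 9921 against 7762 to 7975. miR-23b-3p and miR-27b-3p of the same library, at 6269 and 21302, were not set apart in this way. HM AGO2 IP replicate 4 had 0.38 RPM of miR-23b-5p, from 2 reads, and a miR-23b 5p share of 0.00656% from the same reads, where the other HM libraries had no reads. In total RNA, HM replicate 6 was low for miR-24-3p, at 1497 against 2327 to 2568. WT replicate 1 had the highest log2 ratios of miR-23a-3p to miR-23b-3p, -0.999 against -1.28 to -1.19, and of miR-27a-3p to miR-27b-3p, -3.88 against -4.25 to -4.15. The cause of these values was not tested.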

How the results depend on the processing

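Scale moved the P19 results most. With libraries rescaled to the same total, 1 member was called lower in HM vs WT and 1 in HM vs HetKO, in place of 5 and 6 (miR-23b-5p among the 6). Over all miRNAs 42.8% were then called lower and 47.1% higher in HM vs WT, and 42.0% and 50.3% in HM vs HetKO. The log2 changes of miR-27a-3p, miR-27b-3p and miR-24-3p then changed sign, to 0.090, 0.23 and 0.57 in HM vs WT and 0.10, 0.14 and 0.39 in HM vs HetKO. In HetKO vs WT they became 0.090 for miR-27a-5p and 0.093 for miR-27b-3p. Centring on guide 3p-miRNAs gave 6 called members in HetKO vs WT in place of 0, where 39.6% of all miRNAs were called higher, and turned miR-23a-3p (0.24), miR-27a-5p (0.37), miR-27a-3p (0.26) and miR-27b-3p (0.37) to higher. In AGO2 IP, centring and the added 3p-miRNA scaling left 0 members called higher in place of 3, with miR-23b-3p at -0.58 and -0.59, miR-27a-3p at -0.25 and -0.25, and miR-27b-3p at -0.46 and -0.46. Over all miRNAs, centring left 29.1% called higher and 40.9% lower, and the 3p-miRNA scaling 28.2% and 47.0%. Without a filter 8 members were called lower in HM vs WT and 10 in HM vs HetKO, since the 5p strands entered, against 38.6% of 1229 and 36.7% of 1210 miRNAs called lower. Among the 10, miR-23a-5p and miR-24-2-5p had at most 2 reads per HetKO library, within what a count of 0 allows. Pseudocounts of 0.1 and 10, a filter at a mean of 100 and averaged replicate pairs kept each count of calls within 1.5 times. So did limma-voom on reads (added after seeing the data). Leaving out part of the chromosome 12 cluster (also added) did so too, but it barely changed which miRNAs were tested. The planned edgeR fit was not run, because the values did not meet the condition for a count test.

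With the replicate number as a block, the 5p share of miR-24-2 in HM vs HetKO (-0.0114 percentage points) had an exact sign-flip p of 0.0625 in place of 0.0152 in the exact permutation test, and that of miR-23b in HetKO vs WT (0.212) had 0.0938 in place of 0.026. In AGO2 IP, where numbers did not pair the libraries, the block gave -1.52 for miR-23a-3p (limma adjusted p = 0.00663) and 0.66 for miR-23b-3p (limma adjusted p = 0.0731). It changed no other call.

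Leaving out 1 library gave -0.021 to 0.092 for miR-23b-3p, -0.094 to 0.051 for miR-27a-5p and -0.074 to 0.013 for miR-27b-3p in HetKO vs WT, none called. The ratio of miR-27a-3p to miR-27b-3p in HM vs WT spanned -0.19 to -0.084, and the miR-23b 5p share in HetKO vs WT 0.156 to 0.26 percentage points. In AGO2 IP the differences of 5p shares spanned -0.0357 to -0.0282 for miR-23a, -0.067 to -0.0528 for miR-23b and -0.0456 to -0.0267 for miR-27b, and AGO2 IP over total RNA for miR-27a-3p in WT 0.979 to 1.13.

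In HEK293T the log2 differences shrank or grew with the scale but kept their sign. With the same miRNA total and the same 5p-miRNA total they were -2.75 and -3.34 for miR-23a-3p, -1.99 and -2.57 for miR-27a-3p, -4.31 and -4.90 for miR-27b-3p, -3.37 and -3.95 for miR-24-3p, and 3.60 and 3.01 for miR-27a-5p. Counting error is largest for the 5p strands in HM and, with D1320A, for miR-23b-3p (3 reads), miR-27b-5p (2), miR-23a-5p (1) and miR-23b-5p (0).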
